A study of Mus musculus with 12 samples.

Results

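Transmitter receptors are the proteins through which hair cells, their nerve fibres and the cells around them sense glutamate, GABA, glycine, acetylcholine and ATP. The receptor genes described here were chosen by symbol: the ionotropic glutamate receptor genes (Gria, Grin, Grik and Grid), the metabotropic glutamate receptor genes (Grm), the GABA-A, GABA-B and glycine receptor genes, the nicotinic acetylcholine receptor genes (Chrn) other than Chrna9 and Chrna10, and the ATP-gated P2X genes (P2rx). A gene also had to reach 1 CPM (counts scaled to the depth of the library) in 3 or more of an organ's 6 libraries. That left 54 genes of the 29641 listed in the series, from 71 symbols that matched. In the cochlea 51 passed, in the vestibule 36 passed, and 33 passed in both. The symbol rule also takes in Grid2ip, which encodes a scaffold protein that binds a delta receptor and is not itself a receptor.

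The RNA came from ribosomes pulled down with an antibody against the HA tag. The RiboTag allele swaps a ribosomal protein for a tagged form wherever Cre has acted, and the pull-down is enriched for RNA under translation in such cells. All animals were RiboTagHA/HA and all carried Cre at the Gfi1 locus. Heterozygotes were Gfi1Cre/+ and mutants Gfi1Cre/Cre, aged postnatal day 0 to 1. Each genotype gave 3 libraries of cochlea (hearing) and 3 of vestibule (balance), 12 in all. The labels call the cochlear samples enriched hair cells and the vestibular samples enriched vestibular cells, and do not say how many animals went into a library. Since the Cre allele also removes Gfi1, a transcriptional repressor needed by hair cells, Cre dose and loss of Gfi1 cannot be told apart. Organs had different library kits, so levels were never compared between them.

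As background, ionotropic receptors are ion channels opened by the transmitter itself, whereas metabotropic receptors act through G proteins. Afferent nerve fibres of the inner ear receive glutamate from hair cells mainly through AMPA receptors, efferent fibres release acetylcholine onto hair cells, and ATP acts on P2X channels of sensory neurons and supporting cells during development. Muscle-type nicotinic receptors are built from the products of Chrna1, Chrnb1, Chrnd and either Chrng, before birth, or Chrne, later, while Chrna3 and Chrnb4 are the pair typical of autonomic ganglia.

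Gfi1 itself was read first, as the check of the labels. In the cochlea it stood at 165, 106 and 126 CPM in heterozygotes and 75.1, 64.3 and 69.1 CPM in mutants (log2 change -0.90, SE 0.16, adjusted p = 0.00355). Vestibular Gfi1 stood at 534, 450 and 483 CPM and then 236, 198 and 208 CPM (-1.19, SE 0.13, adjusted p = 0.00234). Both organs thus showed lower but not absent Gfi1 reads, and the labels did not say which exons the allele removes. Cochlear library totals were 7531518 to 9363796 reads (1 read being 0.107 to 0.133 CPM) and vestibular totals 18951026 to 29370267 (0.0340 to 0.0528 CPM). The cochlear replicate 3 libraries of both genotypes stood apart in mitochondrially encoded transcripts (33207 and 27152 CPM, against 58562 to 78544 CPM in the other 4). These transcripts were also lower in the mutant of every replicate number in both organs, at 7212, 8626 and 2733 CPM in heterozygous and 2368, 5156 and 1282 CPM in mutant vestibules. Their part in the receptor values was not tested. Likewise the vestibular replicate 1 libraries had 0.684% and 0.729% of reads outside the listed genes, against 0.119% to 0.127%.

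Throughout, a change is the mutant mean minus the heterozygote mean in log2(CPM + 1), a scale on which changes of weakly expressed genes come out too small. A gene is called when its limma p, adjusted by Benjamini-Hochberg over all genes tested in the organ, is under 0.05. Counts at an unadjusted p under 0.05 are given without a share of all genes, so they have no background here. Less RNA per cell and fewer cells of a type cannot be told apart in such bulk libraries.

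In the cochlea 8 of the 51 receptor genes were called, 4 higher and 4 lower in mutants. That is 15.7% of them, against 4.41% of all 17985 genes tested (1.9% higher and 2.52% lower). The median change of the receptor genes was 0.05, the same as over all genes. Nicotinic genes made up 5 of the 8, with Chrna3 and Chrnb3 higher and Chrna1, Chrng and Chrnb4 lower. The others were P2rx3 and Gabbr2, higher, and Grm2, lower. In the vestibule 5 of 36 receptor genes were called, which is 13.9%, against 3.5% of all 15595 genes tested (2.41% higher and 1.09% lower). P2rx3, Grm7 and Grm8 were higher in mutants there, and Grm2 and Chrna1 lower. The median change of the vestibular receptor genes was -0.21, against -0.06 over all genes. P2rx3 and Chrna1 were called in both organs, each in the same direction in both. Grm2 was also called lower in both, but in the cochlea it passed the minimum only through the 3 heterozygote libraries, so that a lower level in mutants was a condition of its being tested there.

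**Figure D1:**
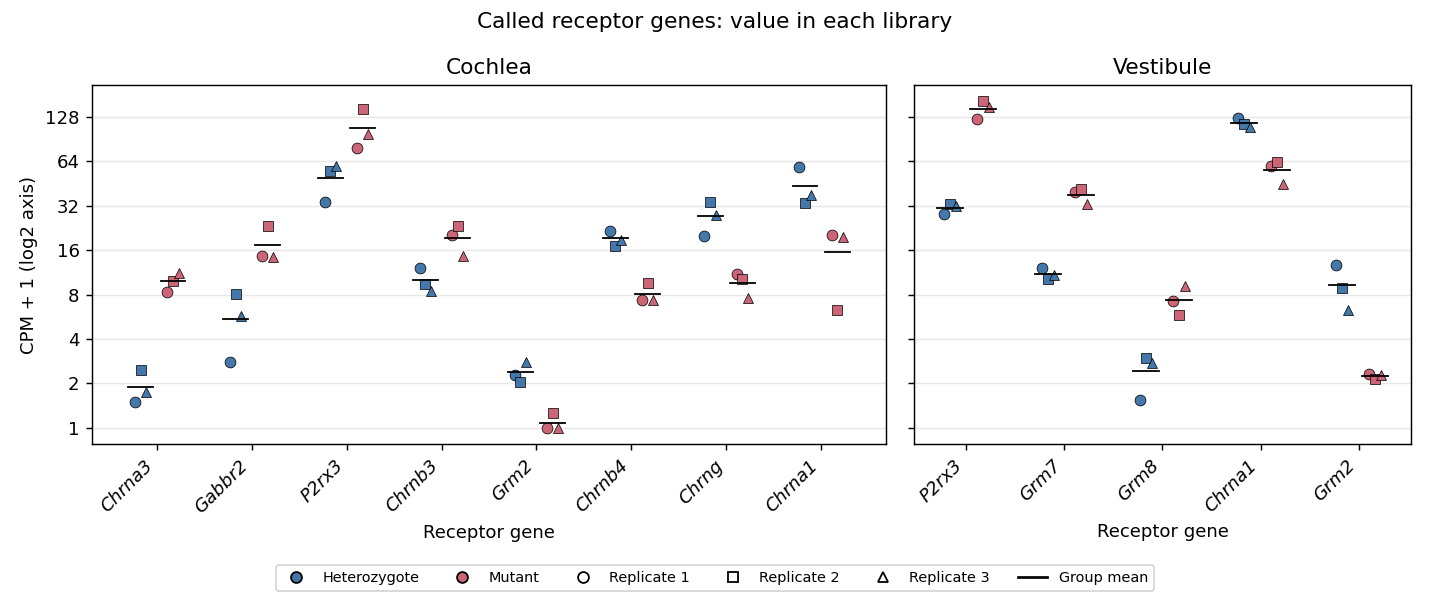
CPM + 1 (log2 axis) of each called receptor gene in each library, with heterozygotes in blue, mutants in red, the replicate number by marker shape and the group mean as a line. In each of the 8 cochlear and 5 vestibular genes the mutant and heterozygote libraries do not overlap, and P2rx3 in the vestibule shows the widest gap in CPM, 27.2 to 32.1 against 123 to 162.

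The genotypes did not overlap in 15 of the 51 cochlear receptor genes (9 with all mutants higher, 6 with all mutants lower), against 17.5% of all genes (9.74% and 7.77%). In the vestibule they did not overlap in 13 of 36 (5 higher, 8 lower), against 22.3% (10.7% and 11.6%). Numbered libraries of the 2 genotypes deviated together in both organs, and a fit with the replicate number as a block called more genes. In the cochlea it called 6 receptor genes higher and 5 lower, against 4.21% and 4.31% of all genes (8.52% in either direction). In the vestibule it called 7 higher and 8 lower, against 10.5% and 12.8% (23.3%). Those additional calls are given with each gene. On the recovered reads edgeR called 3 receptor genes higher and 4 lower in the cochlea (4.52% of all genes in either direction) and 2 higher and 2 lower in the vestibule (3.36%).

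Promoter sequence is shown for 4 called genes: Grm2 and Chrna1, lower in both organs, Chrna3, with the highest rise in the cochlea, and Grm7, higher in the vestibule. These are RefSeq sequences on GRCm38.p6, the 250 bases before the first listed start, 5′ to 3′ on the gene's strand, and each lies outside the span of its gene in GENCODE M21. Capitals mark letters of the searched motifs. Grm2 is on the minus strand of chromosome 9 (chr9:106656110-106656359), Chrna1 on the minus strand of chromosome 2 (chr2:73580339-73580588), Chrna3 on the minus strand of chromosome 9 (chr9:55026563-55026812) and Grm7 on the plus strand of chromosome 6 (chr6:110645262-110645511).
Grm2: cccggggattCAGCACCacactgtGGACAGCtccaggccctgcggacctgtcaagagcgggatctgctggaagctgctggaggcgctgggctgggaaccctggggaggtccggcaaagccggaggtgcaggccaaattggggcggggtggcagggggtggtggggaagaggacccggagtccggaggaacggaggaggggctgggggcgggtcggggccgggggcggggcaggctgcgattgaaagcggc
Chrna1: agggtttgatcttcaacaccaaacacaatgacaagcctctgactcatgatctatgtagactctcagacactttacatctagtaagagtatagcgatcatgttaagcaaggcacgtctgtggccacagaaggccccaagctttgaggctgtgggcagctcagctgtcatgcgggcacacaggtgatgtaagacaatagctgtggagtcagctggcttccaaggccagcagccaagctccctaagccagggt
Chrna3: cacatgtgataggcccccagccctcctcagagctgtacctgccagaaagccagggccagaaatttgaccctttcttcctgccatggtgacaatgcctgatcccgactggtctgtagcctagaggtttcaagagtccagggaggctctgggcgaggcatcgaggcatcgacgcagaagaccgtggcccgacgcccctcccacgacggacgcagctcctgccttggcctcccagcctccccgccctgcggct
Grm7: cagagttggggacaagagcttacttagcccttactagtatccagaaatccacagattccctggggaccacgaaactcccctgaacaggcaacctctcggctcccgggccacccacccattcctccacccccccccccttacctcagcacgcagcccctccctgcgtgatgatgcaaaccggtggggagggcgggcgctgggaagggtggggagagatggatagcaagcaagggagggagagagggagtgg

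The windows were searched on both strands for AATCAC, the core letters bound by GFI1, for the E-box CAGATG and for CAGCACC and GGACAGC, the left and right parts of the element bound by REST, a repressor of neuronal genes. Of the 54 receptor genes 37 had a window. The Grm2 window holds both REST letters, 7 bases apart, and the other 3 windows printed hold no match. CAGCACC occurs in 2 of the 37 receptor windows (Grm2 and Gabrq) and in 5.70% of all 27025 windows. GGACAGC occurs in 4 of the 37 (Grm2, Gria2, Glrb and P2rx4) and in 5.29% of all. AATCAC occurs in 0 of the 37 and in 9.22% of all, and CAGATG in 1 (P2rx7) and in 14.5% of all. A match is a description of letters and not of a bound site.

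Of the nicotinic subunit genes 10 passed the minimum in the cochlea, and the genotypes did not overlap in 7, against 17.5% of all genes. Among the 7 was Chrna2, which passed the minimum only through the mutants, so that passing already required a difference. Chrna3, on chromosome 9 (chr9:55010111-55026562), encodes the ligand-binding alpha 3 subunit of ganglionic receptors. Its level was 0.508, 1.46 and 0.748 CPM in the heterozygous cochleae and 7.37, 8.90 and 10.2 CPM in the mutant ones. Every mutant library was above every heterozygous one, from a level near that of a few reads: 22 reads in all 3 heterozygous libraries together and 216 in the mutants, a ratio of 9.97 (95% exact interval 6.42 to 16.2, counting error only). The rise was 2.39 (SE 0.27, adjusted p = 0.00012), and it was called with each library left out.

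Chrnb4, which encodes the beta 4 subunit that assembles with alpha 3, lies beside Chrna3 and on the same strand (chr9:55028154-55048779), and moved the other way. Its levels were 20.6, 16.2 and 17.8 CPM in heterozygotes and 6.37, 8.52 and 6.37 CPM in mutants, with no overlap. The fall was -1.25 (SE 0.21, adjusted p = 0.00244) and was called with each library left out. In the vestibule the Chrnb4 change was -0.45 (SE 0.30) and was not called. Its difference between organs, -0.81, was not called either (limma, adjusted p = 0.345). Vestibular Chrna3 was below the minimum, at most 1.10 CPM. Chrna5, the accessory alpha subunit gene on the other side of Chrna3, did not pass the minimum and reached at most 1.51 CPM. Per kilobase of exon, Chrnb4 stood far above Chrna3 in heterozygotes (4.89 against 0.172 CPM per kb) and near it in mutants (1.90 against 1.68 CPM per kb).

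Chrna1 (chr2:73563215-73580338) encodes the ligand-binding alpha 1 subunit of muscle-type receptors. In the cochlea it stood at 57.7, 32.4 and 37.1 CPM in heterozygotes and 19.4, 5.29 and 18.8 CPM in mutants. Mutant replicate 2 was the lowest library and heterozygote replicate 1 the highest. The fall was -1.63 (SE 0.37, adjusted p = 0.0216), and without heterozygote replicate 1 it was not called (-1.39, adjusted p = 0.138). In the vestibule Chrna1 stood at 126, 113 and 108 CPM in heterozygotes and 58.8, 62.7 and 43.7 CPM in mutants, again with no overlap. There the fall was -1.07 (SE 0.16, adjusted p = 0.0103), with an adjusted p of 0.0562 when heterozygote replicate 2 was left out.

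Chrng (chr1:87204657-87212694), for the gamma subunit that marks the early form of the muscle-type receptor, fell in the cochlea. Its levels there were 18.9, 33.1 and 26.6 CPM in heterozygotes and 9.998, 9.16 and 6.60 CPM in mutants. No library overlapped, and the fall of -1.49 (SE 0.23, adjusted p = 0.00158) was called with each library left out. In the vestibule Chrng stood at 137, 115 and 100 CPM in heterozygotes and 220, 165 and 132 CPM in mutants. Mutant replicate 3 lay below heterozygote replicate 1, and the change of 0.53 (SE 0.20) was not called (adjusted p = 0.242), but was with the replicate block (adjusted p = 0.000341). Within each replicate number the mutant was the higher library. Chrnd, for the delta subunit and just upstream of Chrng on the same strand (chr1:87190607-87200070), passed only in the vestibule, at 0, 0.461 and 0.647 CPM in heterozygotes and 2.48, 1.66 and 2.62 CPM in mutants. Its change of 1.27 (SE 0.29) missed the threshold (adjusted p = 0.0592) and passed it with the replicate block (0.00356). Over the 3 libraries of a genotype these values rest on 30 and 150 reads (ratio 5.65, 95% exact interval 3.80 to 8.66). Chrnd passed the minimum only through the mutants, so that the filter fixed the direction of its change.

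Chrnb1, for the beta subunit of the same receptor, had changes of -0.06 (SE 0.19, adjusted p = 0.975) in the cochlea and -0.38 (SE 0.28, adjusted p = 0.583) in the vestibule, and its genotypes overlapped in both. Chrne, the later counterpart of Chrng, was below the minimum in both organs. Markers of skeletal muscle were low in both organs: of 13 genes in the list, 2 passed the minimum in the cochlea and 3 in the vestibule, and none of these was called by limma or edgeR (0 and 1 at an unadjusted p under 0.05). With the replicate block 1 was called, Des in the vestibule, higher (0.83, adjusted p = 0.00746). Their summed level was 27.4 to 30.4 CPM in heterozygous and 30.8 to 33.8 CPM in mutant cochleae, most of it Ttn (22.9 to 28.6 CPM), and 14.3 to 19.2 and 16.4 to 23.2 CPM in the vestibule, led by Des. Myog stayed at or below 1.16 CPM, Acta1 at or below 1.70 CPM and Ckm at or below 0.536 CPM in every library, and Myod1 and Myf5 were not listed. 

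Chrnb3 (chr8:27368711-27399730) encodes an accessory beta subunit. In the cochlea it stood at 11.2, 8.50 and 7.48 CPM in heterozygotes and 19.4, 22.2 and 13.6 CPM in mutants, with no overlap. The rise of 0.94 (SE 0.23, adjusted p = 0.0338) was not called by edgeR on the recovered reads (adjusted p = 0.0641), under TMM or median-of-ratios scaling (0.0709 and 0.0707) or without the filter on low values (0.0628), and it was lost in 4 of the 6 fits that left out a library, being kept only without heterozygote replicate 1 or mutant replicate 3 (highest adjusted p 0.179). Its vestibular level was near the minimum and passed it only through the heterozygotes, so that the filter fixed the direction there. It stood at 1.70, 1.43 and 1.09 CPM in heterozygotes and 0.686, 0.467 and 0.410 CPM in mutants, a change of -0.66 (SE 0.25) that was not called (adjusted p = 0.245). Its neighbour Chrna6 (chr8:27403212-27413944) was below the minimum in both organs.

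Chrnb2, for the commonest beta subunit of brain nicotinic receptors, had the highest mean CPM of the class over all 6 cochlear libraries, 28.9 against 28.4 for Chrna1, which was the higher of these genes in heterozygotes (mean 42.4 CPM). Chrnb2 stood at 31.7 ± 2.74 CPM (SD, n = 3) in heterozygotes and 26.1 ± 3.93 in mutants (-0.28, SE 0.16, adjusted p = 0.586). Vestibular levels were 73.1, 63.7 and 64.7 CPM and then 97.6, 78.2 and 80.6 CPM (0.34, SE 0.14, adjusted p = 0.273, or 0.0114 with the replicate block). Adar overlaps 16.3% of its exon bases, which makes its reads uncertain. The remaining cochlear members, Chrna2, Chrna4 and Chrna7, had changes of 0.84, 0.68 and 0.80 and were not called. Among them Chrna2 and Chrna7 had all mutants above all heterozygotes, which for Chrna2 the minimum already required.

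In terms of the make-up of the class, per kilobase of exon, Chrna1 was 22.0% to 37.8% of the nicotinic total in heterozygous cochleae and 4.96% to 18.7% in mutants. Chrna3 went from at most 0.824% to 5.93% to 8.27%, and Chrnb3 from 3.37% to 5.04% to 9.09% to 14.3%. In the vestibule Chrng went from 34.3% to 42.8% in heterozygotes to 53.5% to 61.8% in mutants as Chrna1 went from 35.3% to 37.4% to 15.7% to 20.1%. These shares describe the libraries and were not tested.

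**Figure D2:**
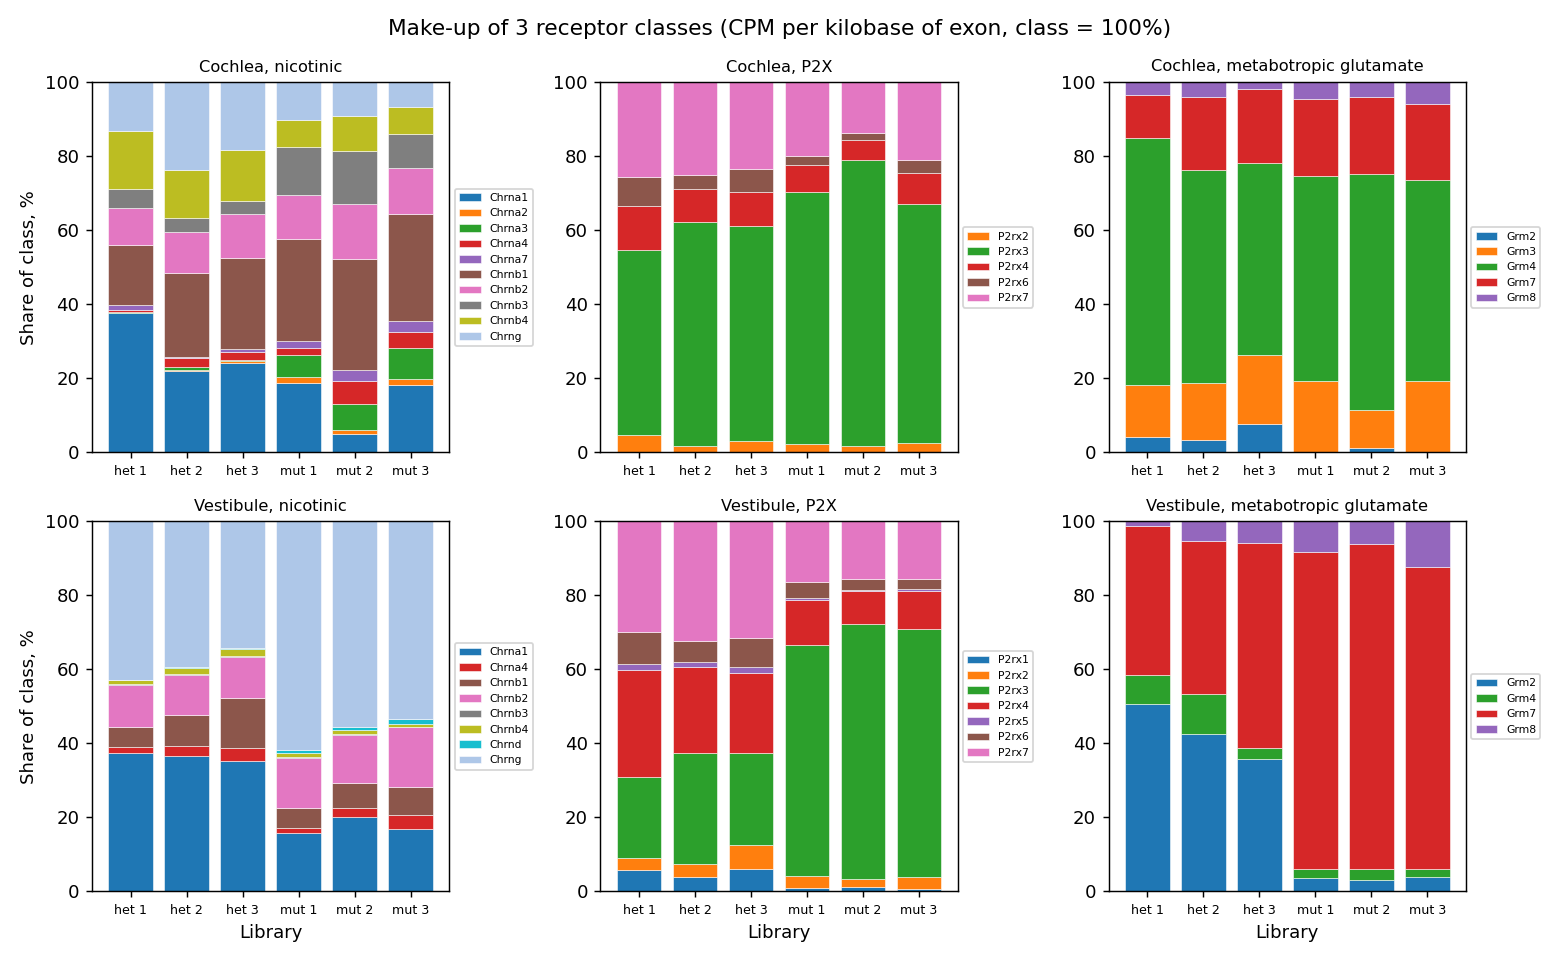
Share of the nicotinic, P2X and metabotropic glutamate totals taken by each gene in each library, from CPM per kilobase of exon (class total = 100%), heterozygotes (het) on the left of each panel and mutants (mut) on the right. In the vestibule P2rx3 goes from 21.8% to 29.9% in heterozygotes to 62.4% to 68.7% in mutants, and Grm2 from 35.8% to 50.8% to 2.97% to 3.91%.

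Among the ATP-gated channels 1 of 5 genes was called in the cochlea and 1 of 7 in the vestibule, P2rx3 in both, against 4.41% and 3.5% of all genes. P2rx3 (chr2:84998583-85037462) encodes a channel known from sensory neurons, and 1.83% of its exon bases are shared with Ssrp1. In the cochlea it stood at 33.2, 53.8 and 58.5 CPM in heterozygotes and 78.1, 143 and 96.7 CPM in mutants. All mutants were higher, with mutant replicate 2 the highest and heterozygote replicate 1 the lowest. The rise was 1.11 (SE 0.23, adjusted p = 0.0116) and was lost without heterozygote replicate 1 (adjusted p = 0.0599) or without mutant replicate 2 (adjusted p = 0.0732). In the vestibule P2rx3 stood at 27.2, 32.1 and 31.1 CPM and then at 123, 162 and 148 CPM, far outside the spread of either genotype. The rise there was 2.22 (SE 0.15, adjusted p = 0.000286), a ratio of 4.79 between the means, and was called with each library left out.

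The other P2X genes gave no call. P2rx7, a channel of immune and glial cells, stood at 44.7 ± 7.49 and 57.2 ± 9.38 CPM in heterozygous and mutant cochleae and 79.5 ± 4.87 and 73.5 ± 4.65 CPM in the vestibule (SD, n = 3). P2rx4, the P2X gene of many cell types, had changes of 0.29 in the cochlea and -0.35 in the vestibule, where all mutants were lower (adjusted p = 0.337, or 0.0169 with the replicate block). P2rx1, known from platelets and smooth muscle, passed only in the vestibule, at 6.70, 3.82 and 6.95 CPM in heterozygotes and 1.95, 2.46 and 1.35 CPM in mutants. Its change of -1.20 (SE 0.28) missed the threshold (adjusted p = 0.0642) and passed it with the replicate block (0.00355). Platelet and megakaryocyte markers summed to 556 to 810 CPM in heterozygous and 396 to 686 CPM in mutant vestibules. Among the 4 tested, Itga2b alone was called, lower, at 42.6, 33.1 and 35.4 CPM and then 10.03, 12.3 and 10.5 CPM. The part of platelets in the P2rx1 values was not tested. P2rx2, P2rx5 and P2rx6 had changes between -0.40 and 0.27.

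Metabotropic glutamate receptor genes gave 1 call of 5 in the cochlea and 3 of 4 in the vestibule, against 4.41% and 3.5% of all genes. The cochlear call is Grm2, which passed the minimum there only through the heterozygotes. Grm2 (chr9:106643095-106656082) encodes mGluR2, a group II receptor that lowers cyclic AMP and acts on transmitter release. In the vestibule it stood at 11.7, 7.89 and 5.31 CPM in heterozygotes and 1.32, 1.15 and 1.27 CPM in mutants. The mutants lay close together and well below all heterozygotes. The fall was -1.99 (SE 0.29, adjusted p = 0.00849), a ratio of 6.65 between the means, and was called with each library left out. In the cochlea Grm2 stood at 1.27, 1.06 and 1.82 CPM in heterozygotes and 0, 0.258 and 0 CPM in mutants, which is 35 against 2 reads in all (ratio of heterozygote to mutant 17.2, 95% exact interval 4.43 to 148). That fall was -1.13 (SE 0.26, adjusted p = 0.0249) with limma and -3.90 with edgeR on the reads (adjusted p = 0.0169). With so few reads, the limma call was kept only without heterozygote replicate 2 among the 6 fits that left out a library (highest adjusted p 0.110), and was lost with a pseudocount of 4 (-0.40, adjusted p = 0.0547) and without both replicate 3 libraries (-0.95, adjusted p = 0.243). A predicted antisense gene, Gm28111, shares 9.60% of the Grm2 exon bases, and the sources used here do not give whether strand was used in counting.

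Grm7 (chr6:110645581-111567230) and Grm8 (chr6:27275119-28135178) encode group III receptors, mGluR7 and mGluR8, which act at nerve terminals. In the vestibule Grm7 stood at 11.1, 9.27 and 9.91 CPM in heterozygotes and 38.6, 40.8 and 31.9 CPM in mutants. The rise of 1.78 (SE 0.17, adjusted p = 0.00148) was several times the spread within either genotype, a ratio of 3.67 between means, and was called with each library left out. Grm8 stood at 0.536, 1.97 and 1.74 CPM and then 6.28, 4.80 and 8.11 CPM, with no overlap. Its rise of 1.65 (SE 0.32, adjusted p = 0.0303) was less stable. It was lost by edgeR (adjusted p = 0.0529), without the filter on low values (0.107) and in 5 of the 6 fits that left out a library (highest adjusted p 0.127), being kept only without heterozygote replicate 1.

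In the cochlea neither gene was called, and the genotypes overlapped in both. Grm7 stood at 4.32, 7.17 and 5.77 CPM and 5.62, 6.07 and 4.05 CPM (-0.10, SE 0.26, adjusted p = 0.961), and Grm8 at 2.03, 2.52 and 0.854 CPM and 2.12, 1.94 and 1.97 CPM (0.15, SE 0.29, adjusted p = 0.936). Grm4, a group III gene with the highest level of the class in the cochlea, stood at 24.6, 21.5 and 15.1 CPM in heterozygotes and 15.4, 18.8 and 10.9 CPM in mutants, which overlapped (-0.42, SE 0.23, adjusted p = 0.553). Grm3, the other group II gene, passed only in the cochlea and had a change of -0.31 (adjusted p = 0.773). Per kilobase of exon, Grm7 was 40.3% to 55.6% of the vestibular metabotropic total in heterozygotes and 81.6% to 87.9% in mutants.

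GABA-B receptors need both the GABA-binding product of Gabbr1 and the signalling product of Gabbr2. Gabbr2 (chr4:46662305-46991873) rose in the cochlea, from 1.78, 7.04 and 4.70 CPM in heterozygotes to 13.6, 22.2 and 13.4 CPM in mutants. Its rise of 1.76 (SE 0.35, adjusted p = 0.00828) was lost without mutant replicate 2 (1.53, adjusted p = 0.0677), the library with the highest value. Gabbr1 was much the more abundant per kilobase, at 11.7 against 0.674 CPM per kb in heterozygotes and 10.8 against 2.46 CPM per kb in mutants. It stood at 91.2 ± 21.7 and 84.0 ± 16.6 CPM (SD, n = 3) in the 2 genotypes (-0.11, SE 0.18, adjusted p = 0.928). In the vestibule Gabbr2 was below the minimum, at most 1.21 CPM. Gabbr1 there was 60.7, 83.0 and 117 CPM in heterozygotes and 37.5, 61.7 and 84.8 CPM in mutants, lower within every replicate number (-0.52, SE 0.32, adjusted p = 0.493, or 0.000951 with the replicate block).

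GABA-A and glycine receptor genes gave 0 calls of 12 in the cochlea and 0 of 3 in the vestibule with limma and with edgeR. Of all genes limma called 4.41% and 3.5%. At an unadjusted p under 0.05 there was 1 in the cochlea and 0 in the vestibule. With the replicate block 1 GABA-A gene was called lower in the cochlea (4.31% of all genes) and 0 in the vestibule. The genotypes did not overlap in 1 cochlear GABA-A gene, mutants lower (7.77% of all genes). Glrb, for the beta subunit of glycine receptors, stood at 16.5 ± 3.24 and 16.4 ± 0.695 CPM in the cochlea and 6.38 ± 0.385 and 5.96 ± 1.98 CPM in the vestibule.

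The ionotropic glutamate receptor genes likewise gave 0 calls, of 16 in the cochlea and 12 in the vestibule, with limma and with edgeR. The limma shares of all genes were 4.41% and 3.5%. At an unadjusted p under 0.05 there were 2 in each organ. Gria3 had the highest level of the AMPA genes in both organs, 61.7% to 68.4% of the AMPA total per kilobase across the 6 cochlear libraries and 63.2% to 71.3% across the vestibular ones. Cochlear levels were 227 ± 27.8 and 230 ± 10.1 CPM (SD, n = 3), a change of 0.03 (SE 0.13, adjusted p = 0.984). Its vestibular values were 20.8, 36.0 and 43.0 CPM and then 12.1, 29.0 and 33.3 CPM, lower within every replicate number (-0.47, SE 0.39, adjusted p = 0.641, or 0.0176 with the replicate block). Gria2, whose product limits calcium entry through AMPA receptors, stood at 26.3, 47.4 and 46.3 CPM in heterozygous and 63.4, 60.0 and 59.5 CPM in mutant cochleae. All mutants were higher (0.64, SE 0.20, adjusted p = 0.106, or 0.00636 with the replicate block).

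NMDA receptor genes were led by Grin2b in the cochlea, at 31.1, 24.2 and 13.3 CPM in heterozygotes and 20.1, 23.4 and 13.9 CPM in mutants (-0.20, SE 0.27, adjusted p = 0.905). Grin2d led them in the vestibule, at 7.59 ± 1.60 and 6.34 ± 1.08 CPM (SD, n = 3). Grin1, whose product every NMDA receptor needs, was low in both organs, at 2.45 and 2.15 CPM on average in heterozygotes, and 13.5% of its exon bases are shared with Grin1os. Grin3a in the cochlea had a change of 0.65 (SE 0.22, adjusted p = 0.167, or 0.0481 with the replicate block).

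Of the kainate receptor genes Grik5 was the highest in both organs. Its cochlear level was 47.1 ± 8.98 and 42.8 ± 4.07 CPM (SD, n = 3; -0.12, SE 0.16, adjusted p = 0.901). In the vestibule it stood at 72.1, 78.8 and 95.7 CPM in heterozygotes and 50.2, 51.3 and 58.2 CPM in mutants, with no overlap (-0.61, SE 0.15, adjusted p = 0.0678, or 0.000245 with the replicate block). The Grik5 change passed without heterozygote replicate 1 (adjusted p = 0.0495) or both replicate 1 libraries (0.0349). Grik4, for the other high-affinity subunit, had a vestibular change of -0.76 (SE 0.24, adjusted p = 0.152, or 0.026 with the replicate block). The scaffold gene Grid2ip stood at 52.9, 63.5 and 74.4 CPM and 83.7, 74.2 and 81.4 CPM in the vestibule (0.33, SE 0.15, adjusted p = 0.332, or 0.0349 with the replicate block).

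**Figure D3:**
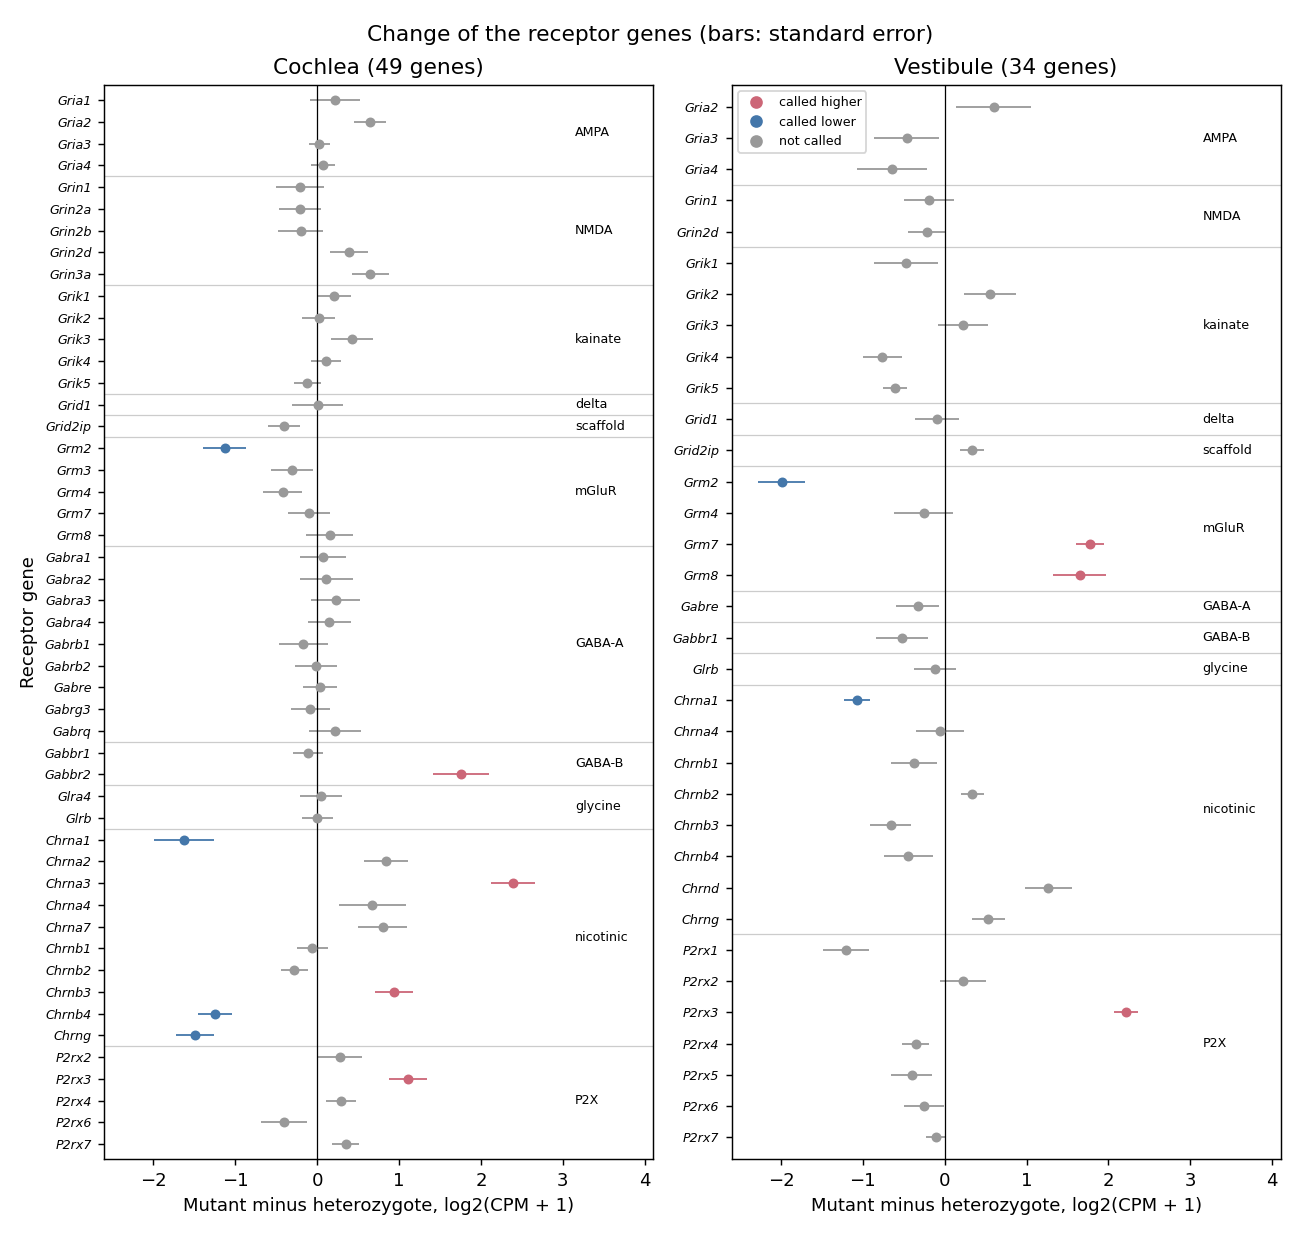
Mutant minus heterozygote change on the log2(CPM + 1) scale of the receptor genes, by class, in the cochlea (49 genes drawn) and the vestibule (34 genes drawn); bars are 1 standard error. Called genes sit in the nicotinic, P2X, metabotropic glutamate and GABA-B classes, and the cochlear range is -1.63 (Chrna1) to 2.39 (Chrna3).

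Over the 43 cochlear genes that were not called, changes reached 0.84 (Chrna2), and 38 of them lay within 0.5 of 0. Over the 31 vestibular ones they ran from -1.20 (P2rx1) to 1.27 (Chrnd), and 21 lay within 0.5. A missed call does not show that a level was equal in the 2 genotypes.

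The difference between organs, the cochlear change minus the vestibular change, was tested in a single fit of all 12 libraries over the 14674 genes that passed in both. Of the 33 receptor genes in it 3 were called, 1 higher and 2 lower, against 3.14% of all genes (0.709% and 2.43%). Chrng differed by -2.02 (SE 0.32, adjusted p = 0.00191) and Grm7 by -1.88 (SE 0.30, adjusted p = 0.0022). Both differences were called with each of the 12 libraries left out. Chrnb3 differed by 1.59 (SE 0.34, adjusted p = 0.0163), and the call was lost without cochlear mutant replicate 1 (adjusted p = 0.0518) or cochlear mutant replicate 2 (0.0516). Its vestibular part is the change whose direction the filter fixed. P2rx3 rose in both organs, and the difference of -1.11 (SE 0.32) was not called (adjusted p = 0.0823), but was with the replicate block (0.000274) and under TMM or median-of-ratios scaling (0.0423 and 0.0475). The Grm8 difference of -1.50 (SE 0.44) was not called either (adjusted p = 0.0900, or 0.018 with the block). With the block 11 of the 33 were called, 5 higher and 6 lower, against 13.3% of all genes (6.9% and 6.43%). Organ and library kit cannot be told apart in these differences.

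**Figure D4:**
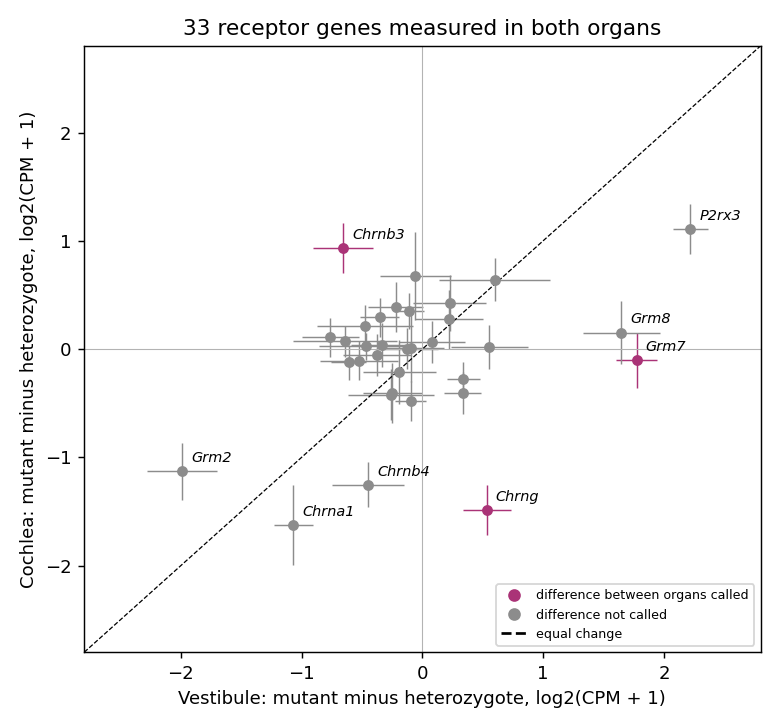
Change in the cochlea (vertical axis) against change in the vestibule (horizontal axis), both log2(CPM + 1), for the 33 receptor genes tested in both; bars are 1 standard error and the dashed line marks equal change. Chrng, Grm7 and Chrnb3 lie off the line with a called difference (-2.02, -1.88 and 1.59), while Grm2 and Chrna1 are lower, and P2rx3 higher, on both axes.

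Proteins that place or tune these receptors were followed in 3 lists. Of the glutamate receptor partners 32 were tested in the cochlea, with 1 higher and 3 lower (background 4.41% in either direction), and 30 in the vestibule, with 2 higher and 2 lower (background 3.5%). Cacng2, which encodes stargazin, an auxiliary subunit that carries AMPA receptors to the membrane, fell in the cochlea from 17.02, 11.3 and 13.2 CPM to 2.37, 3.36 and 2.08 CPM (-2.04, SE 0.25, adjusted p = 0.00021). Shisa9, for another AMPA auxiliary subunit, rose there (1.23, SE 0.28, adjusted p = 0.0194), and Shank2 (-0.56) and Homer2 (-0.54), for postsynaptic scaffolds, fell. Homer2 also fell in the vestibule (-0.73, SE 0.13, adjusted p = 0.0215). Gsg1l, for a further AMPA auxiliary subunit, rose there from 7.32, 5.83 and 7.69 CPM to 25.5, 28.5 and 24.1 CPM (1.77, SE 0.18, adjusted p = 0.00208). Shisa6 fell (-1.01, SE 0.16, adjusted p = 0.0143), and Nptx2, for a secreted pentraxin that gathers AMPA receptors, rose (1.31, SE 0.26, adjusted p = 0.0322). Among these, Cacng2 and Gsg1l were called with each library left out, whereas Nptx2 was called in 0 of the 6 such fits, Shank2 and, in each organ, Homer2 in 1, Shisa6 in 2 and Shisa9 in 4. With the replicate block 2 glutamate receptor partners were higher and 5 lower in the cochlea (background 8.52% in either direction), and 5 higher and 6 lower in the vestibule (background 23.3%).

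Of the 18 GABA and glycine receptor partners 0 were called in the cochlea by limma or edgeR (4 at an unadjusted p under 0.05) and 2 were higher in the vestibule. In either direction the limma backgrounds were 4.41% and 3.5%, also for the nicotinic partners below. Slitrk3, for an adhesion protein of inhibitory synapses, rose from 2.37, 3.10 and 2.62 CPM to 12.9, 9.94 and 14.3 CPM (1.84, SE 0.22, adjusted p = 0.00371). Kctd16, for an auxiliary subunit of GABA-B receptors, rose from 0.312, 0.797 and 0.340 CPM to 2.90, 3.78 and 4.79 CPM (1.70, SE 0.27, adjusted p = 0.0127). Of the nicotinic partners, 1 of 12 was higher in the cochlea and 1 of 11 lower in the vestibule, and it was the same gene, Lypd1, for a membrane-anchored modulator of nicotinic receptors. It rose in the cochlea from 18.9, 16.6 and 22.4 CPM to 40.7, 59.7 and 42.9 CPM (1.25, SE 0.18, adjusted p = 0.000928). In the vestibule it fell from 2.10, 3.86 and 4.12 CPM to 0.158, 0.382 and 0.0819 CPM (-1.83, SE 0.29, adjusted p = 0.0122). There Lypd1 passed the minimum only through the heterozygotes, and Kctd16 only through the mutants. The filter thus fixed the direction of both vestibular changes. The vestibular calls of Kctd16 and Lypd1 were each lost in 3 of the 6 fits that left out a library, and those of Slitrk3 and of Lypd1 in the cochlea in none. With the replicate block 2 GABA and glycine receptor partners were higher in the cochlea (Gabarapl1 and Plcl2), and 4 were higher and 2 lower in the vestibule. Nicotinic partners then gave 1 higher in the cochlea and 3 lower in the vestibule. For both lists the backgrounds with the block were 8.52% in the cochlea and 23.3% in the vestibule, in either direction.

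Markers of some other cell types moved with genotype as well, and those of others gave no call. The counts below stand against 4.41% of all genes called in the cochlea and 3.5% in the vestibule, in either direction. Ganglion neuron markers summed to 1593 to 1733 CPM in heterozygous and 2770 to 3090 CPM in mutant cochleae, with 11 of 18 called higher, and to 1597 to 1851 and 2832 to 2890 CPM in the vestibule, with 6 of 16 higher and 1 lower. None was at 0 throughout. In the cochlea Neurod1 (1.78, 0.664 and 0.107 CPM against 83.5, 180 and 82.6 CPM) and Gap43 (9.91, 13.7 and 12.1 CPM against 81.7, 182 and 90.7 CPM) were highest in mutant replicate 2, the library in which P2rx3, Gabbr2 and Chrnb3 were also highest. These are 2 of the 18 markers. Chrna3, the remaining receptor gene called higher in the cochlea, was highest in mutant replicate 3. In the vestibule Neurod1 and Prph were below the minimum, and Gap43, Stmn2 and Tubb3 were at most 8.23 CPM, whereas Slc17a6 rose, with 74.1 to 115 CPM in the heterozygotes and 319 to 351 CPM in the mutants. Hair cell markers summed to 4868 to 5629 CPM in heterozygous and 3284 to 3817 CPM in mutant cochleae, with 9 of 14 lower, and to 10341 to 11307 and 11059 to 11750 CPM in the vestibule, with 2 higher and 1 lower. Gfi1, the gene that the Cre allele removes, is in this hair cell list. It was among the 9 lower genes in the cochlea and was the 1 lower gene in the vestibule. Genotype itself fixed those calls. In the vestibule the mesenchyme sum was 1954 to 2572 CPM for heterozygotes but 1082 to 1481 CPM for mutants (2 of 10 genes lower), and glia markers summed to 404 to 465 and 256 to 288 CPM (1 of 11 lower). Macrophage markers summed to 2258 to 2842 and 2757 to 3364 CPM in the cochlea (2 of 13 higher) and 7437 to 9405 and 7070 to 8287 CPM in the vestibule (none of 13 called by limma or edgeR, 2 at an unadjusted p under 0.05). Supporting cell markers gave 1 lower of 12 in the cochlea and 0 of 12 in the vestibule (4 at an unadjusted p under 0.05). Melanocyte markers gave 0 of 4 and 0 of 6 (0 and 2 at an unadjusted p under 0.05). The replicate block moved the vestibular counts most, to 9 of 10 mesenchyme, 7 of 11 glia and 3 of 13 macrophage markers lower, 6 hair cell markers higher and 2 lower, and 8 ganglion neuron markers higher and 2 lower, against 23.3% of all genes called. Gap43 and Tubb3 were among those then called higher (adjusted p = 0.0180 and 0.0242). In the cochlea the block gave 12 hair cell markers lower and 1 higher, and 13 ganglion neuron markers higher, against 8.52% of all genes called. The part of these cells in the receptor values was not tested.

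Of the 71 matching symbols 17 passed in neither organ. They included the nicotinic genes Chrna5, Chrna6 and Chrne, the NMDA genes Grin2c and Grin3b, the metabotropic genes Grm5 and Grm6, Glra1 and Glra2, and the GABA-A genes Gabra5, Gabrd, Gabrg1, Gabrp, Gabrr2 and Gabrr3. In the vestibule only 2 of 16 listed GABA-A genes and 2 of 7 NMDA genes reached the minimum. Just inside it, at 1 CPM in exactly 3 libraries, were Grm2 and Chrna2 in the cochlea and Chrnb3 and Chrnd in the vestibule. In each of these the 3 libraries were those of 1 genotype, so that passing the minimum already required a difference. Just outside it, with 2 libraries, were among others Gabrg1 in the cochlea and Grin2b and Grin3b in the vestibule.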

How the data were processed

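RNA bound to HA-tagged ribosomes was sequenced in 12 libraries, 3 per genotype and organ, described as biological triplicates in the labels. The authors deposited CPM (reads scaled to the library total), 1 table per library, per the file headers. TopHat and GRCm38 are named in the submitters' processing notes; how reads were counted, with which strand setting and which annotation, are details not given in the sources used here. All values (100%) were whole multiples of the value of 1 read to within 1e-06, so whole reads were recovered.

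Genes with 1 CPM or more in at least 3 of 6 libraries were tested by limma 3.58.1 (trend, R 4.3.3) on log2(CPM + 1), and edgeR 4.0.16 (quasi-likelihood) was run on the recovered reads as an alternative, calling 813 cochlear and 524 vestibular genes. The limma fits without the replicate block were tested on simulated data, and the edgeR test was not. Deviations of same-numbered libraries of the 2 genotypes correlated at 0.226 to 0.420 for the cochlea, 0.508 to 0.766 for the vestibule (different numbers: -0.240 to 0.0127 and -0.640 to 0.318), so the numbers were taken as pairs and a replicate block was fitted as an alternative. Other alternatives were pseudocounts 0.25 and 4, no filter or 5 CPM, median-of-ratios and TMM scaling, and leaving out libraries. Exon lengths and coordinates are from GENCODE M21 (GRCm38), promoters from RefSeq. Intervals are exact and cover counting error only. Figures were drawn with matplotlib 3.10.9.

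Named receptor genes are those called in an organ or between organs and the highest of each class by mean CPM, with others by range, as neighbours of called genes, or where the block changed the call; partner genes are named where called. Gabra3, Gabrb2, Grin3b and the neighbouring or subunit-partner genes were singled out after their values were seen. Some genes, also some that lead their class, are counted but not reported here by name. The members, lists and rules were chosen with earlier results of these data known.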

Additional observations from a re-analysis of the deposited data

Results flagged for a closer look

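For 3 receptor genes the change differed between organs by the test of the difference itself (limma, adjusted over 14674 genes). Chrng fell in the cochlea (-1.49) and had a change of 0.53 in the vestibule, a difference of -2.02. Grm7 had a change of -0.10 in the cochlea and rose in the vestibule (1.78), a difference of -1.88. Chrnb3 rose in the cochlea (0.94) and had a change of -0.66 in the vestibule, a difference of 1.59, but it entered the vestibular test only through its 3 heterozygote libraries, so that the filter on low values fixed the direction of the vestibular change. Because each organ had its own library kit, organ and kit cannot be told apart.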

How the results depend on the processing

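Genes called numbered 794 in the cochlea and 546 in the vestibule. With the replicate block they numbered 1532 and 3634, without the filter on low values 358 in the vestibule, and without both vestibular replicate 1 libraries 863. With the block 7 vestibular receptor genes were higher (3 without it) and 8 lower (2 without it), and 11 differed between organs (3 without it; 5 under TMM scaling). The block changed no call of a named gene other than those given beside it and the between-organ differences of Chrnb2, Grid2ip, Gria3, Grik5, P2rx4 and P2rx7. Leaving out 1 library gave 546 to 801 cochlear and 226 to 522 vestibular genes, 1 to 4 receptor genes higher and 2 to 4 lower in the cochlea, 2 to 3 higher and 1 to 3 lower in the vestibule, and 2 to 4 that differed between organs. The lowest receptor counts came without cochlear mutant replicate 2 (Gabbr2, P2rx3, Chrnb3 and Grm2 lost), without cochlear heterozygote replicate 1 (Chrna1, Grm2 and P2rx3 lost) and without vestibular heterozygote replicate 2 (Chrna1 and Grm8 lost). No direction of a called gene was reversed in any of these alternatives. Over all single-gene values, 734 kept their direction and side of the threshold, 32 newly passed it and 67 no longer did; the causes were not tested. Depth limits the genes near 1 CPM most, which is under 10 reads in a cochlear library.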

Other observations

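A few receptor genes below the minimum in the vestibule were singled out after their values were seen and were not tested there. Gabra3 and Gabrb2 passed in the cochlea and were not called there. In the vestibule Gabra3, for a GABA-A alpha subunit, had 19, 21 and 14 reads in heterozygotes and 0 in each mutant, and Gabrb2, for a beta subunit, had 5, 12 and 9 reads and again 0 in each mutant. Grin3b had reads in both genotypes, with 58 and 74 reads in the 2 vestibular replicate 1 libraries and 12 to 19 in the other 4, and 32.1% of its exon bases are shared with Tmem259.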
